A study of Mus musculus with 16 samples.

Results

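Treadmill training was compared between CHCHD4 transgenic and wild-type mice in skeletal muscle RNA, and for every expressed gene the training response in transgenic muscle was set against the training response in wild-type muscle. The groups were Tg trained (genotype CHCHD4 Tg, treadmill training), Tg untrained (CHCHD4 Tg, no training), WT trained (wild type, treadmill training) and WT untrained (wild type, no training), with 4 libraries each. All 16 libraries entered the comparison, and 17490 of the 55487 genes in the deposited table had enough counts to be tested. The labels name neither the muscle, the strain, the age nor the sex of the mice, nor the promoter behind the transgene or the length of training. Whether 4 libraries stand for 4 mice is not given either, so p-values measure the spread between these libraries.

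CHCHD4 is an oxidoreductase of the mitochondrial intermembrane space. It oxidises cysteines of small imported proteins, among them subunits and assembly factors of the respiratory chain. Endurance training is known to raise mitochondrial and oxidative genes of muscle over weeks, while single bouts of contraction, handling or blood flow briefly raise immediate early genes such as Fos and Egr1. The response difference used here is the log2 fold change of Tg trained over Tg untrained minus that of WT trained over WT untrained. It is positive where training raised a gene more, or lowered it less, in Tg than in WT. The same number can come from any of the 4 groups, so each gene was also described by the group that stood apart: the group whose fitted level lay farther from its nearest neighbour than the other 3 groups lay from each other.

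Library totals ranged from 40888325 to 61703724 counts. Levels are given in CPM, read counts scaled by TMM to a common library size. The libraries carried the transcripts of fast skeletal muscle, with 80100 to 116000 CPM of titin (Ttn) and 24600 to 37400 CPM of the fast myosin Myh4. The transgene was visible in every library, with 21.6 to 22.2 CPM of Chchd4 in Tg trained and 18.1 to 22.2 in Tg untrained, against 7.26 to 8.85 in WT trained and 6.88 to 8.98 in WT untrained libraries. WT untrained replicate 2 stood apart, with a TMM factor of 1.285 against 0.924 to 1.105 in the other libraries. Tg untrained replicate 2, WT trained replicate 4 and WT untrained replicate 2 held more than 10 CPM of the liver transcript Alb. Tg untrained replicates 2 and 3, WT trained replicate 3 and WT untrained replicate 2 exceeded 10 CPM for Myh7, a myosin of slow fibres. No Tg trained library was in either set.

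The training response differed between genotypes for few genes. Of 17490 genes, 9 passed an adjusted p of 0.05 (edgeR quasi-likelihood test, Benjamini-Hochberg), or 0.0515% of those tested. The response was higher in Tg for 2 of them (0.0114% of those tested), the zinc-finger gene Thap2 and its neighbour Zfc3h1, a cofactor of nuclear RNA decay. It was lower in Tg for the other 7 (0.04%): the endothelial stress gene Apold1, the histone gene Hist1h4m and 5 unnamed gene models. At an unadjusted p under 0.05 stood 1053 genes (6.02% of those tested), 425 higher (2.43%) and 628 lower (3.59%), and the median response difference over all tested genes was -0.01. DESeq2 called 37 genes on the same counts, which included the 9 and also Fos, Fosb, Egr1, Klf2 and Klf4. Within a genotype, training passed the adjusted threshold for 0 genes in Tg (1938 at unadjusted p under 0.05, or 11.1%, 132 by DESeq2, and 93 by edgeR without WT untrained replicate 2) and for 25 in WT (0.143%; 18 higher, or 0.103%, and 7 lower, or 0.04%; 68 by DESeq2).

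Most genes at the unadjusted threshold had responses of opposite sign in the genotypes. Among the 1053 genes at unadjusted p under 0.05, 377 were up with training in Tg and down in WT, and 559 were down in Tg and up in WT, together 88.9%. Over all tested genes the opposite-sign share was 41.6%, and Pearson's r between the responses was 0.20, a value across genes, which are not independent replicates. Selection on the difference itself favours opposite signs, so the share is a description only.

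**Figure D1:**
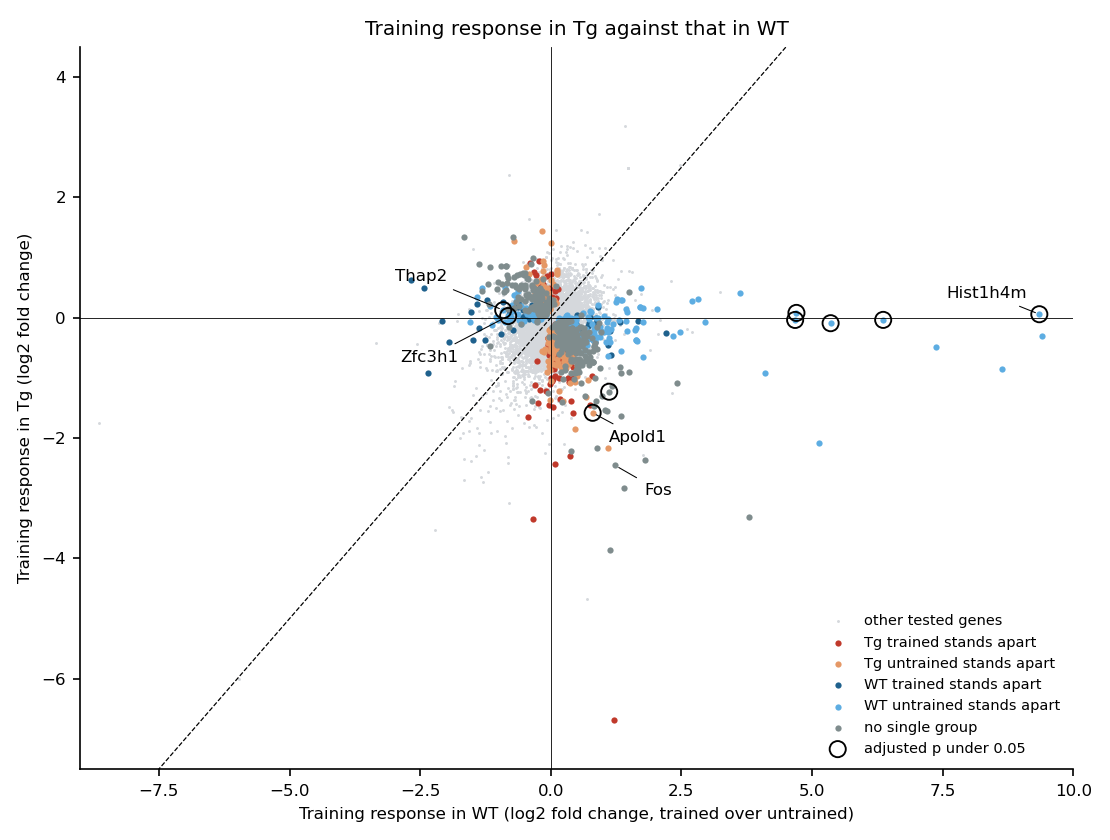
Each point is a tested gene. The x axis is the training response in WT and the y axis that in Tg, both as log2 fold change of trained over untrained; the dashed line marks equal responses. Colours give the group that stood apart for the 1053 genes at unadjusted p under 0.05, and black circles mark the 9 called genes: 5 of them lie far right on the zero line of Tg, with a large WT response and one near 0 in Tg, while Apold1 and 1 unnamed model lie below it.

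WT untrained was the group that stood apart most often as the evidence tightened. It stood apart for 18.7% of all tested genes, for 238 of the 1053 genes at unadjusted p under 0.05 (22.6%), for 67 of the 268 at p under 0.01 (25.0%), for 24 of the 51 at p under 0.001 (47.1%) and for 7 of the 9 called genes. Tg untrained stood apart for 13.4% of all tested genes, and for 206 (19.6%), 43 (16%), 6 (11.8%) and 1 of the same sets. Tg trained stood apart for 13.0% of all tested genes and for 121 (11.5%), 23 (8.58%), 2 (3.92%) and 0. WT trained was the rarest, with 7.80% of all tested genes and 71 (6.74%), 9 (3.36%), 0 and 0. In the remaining genes no group stood apart, 417 (39.6%) of those at p under 0.05 against 47.1% of all. Neighbouring genes and models that share reads are each counted here, so the numbers are of genes and not of separate loci.

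The order of WT untrained and Tg untrained was not stable. Among the 389 genes at p under 0.05 with a mean of at least 5 CPM, Tg untrained stood apart for 111 (28.5%) and WT untrained for 97 (24.9%). Over all 7778 tested genes of that level the shares were 14.2% for Tg untrained and 21.4% for WT untrained. The WT untrained share was thus close to its background there. With unnamed models left out, 767 genes stood at p under 0.05. Tg untrained stood apart for 173 of them (22.6%) and WT untrained for 171 (22.3%). When each library was left out in turn, WT untrained was the most frequent of the 4 groups in 10 of 16 fits, Tg untrained in 5 and Tg trained in 1. Both untrained groups together took more genes than both trained groups in the full fit, 444 against 192 of 1053. Over all tested genes the untrained groups also stood apart more often. The shares there were 18.7% for WT untrained and 13.4% for Tg untrained, against 13.0% for Tg trained and 7.8% for WT trained.

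**Figure D2:**
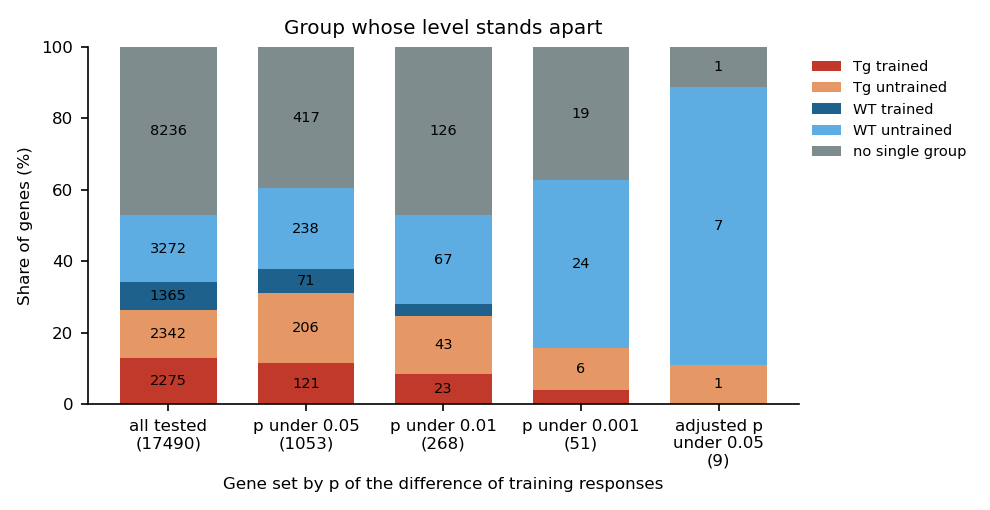
Stacked bars give the share of genes (y axis, %) in which each group stood apart, for all tested genes and for gene sets of falling p of the response difference (x axis); numbers in the bars are genes. WT untrained grows to 24 of 51 genes at p under 0.001 and 7 of 9 called genes, while WT trained shrinks to 0.

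Setting each group against the mean of the other 3 gave a separate test of these positions. This contrast called 7 genes for Tg trained (0.04% of those tested), 37 for Tg untrained (0.212%; 0.149% higher and 0.0629% lower), 7 for WT trained (0.04%) and 155 for WT untrained (0.886%; 0.417% higher and 0.469% lower). Genes that were called there, had that group standing apart and also had a response difference at p under 0.05 numbered 3 for Tg trained, 18 for Tg untrained (14 higher, 4 lower), 1 for WT trained and 65 for WT untrained (21 higher, 44 lower). The contrasts share libraries with the response difference, so the counts are given side by side and not as independent evidence. They moved with single libraries: the 37 of Tg untrained became 326 without WT untrained replicate 2 and 3 without Tg untrained replicate 3, and the 155 of WT untrained became 62 without Tg trained replicate 4 and 320 without WT trained replicate 4. The 7 of Tg trained became 2 without Tg trained replicate 2 or 4 and 74 without WT trained replicate 2, and the 7 of WT trained became 43 without WT untrained replicate 2.

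Thap2, Zfc3h1 and Tmem19 were high only in the libraries of WT untrained. Thap2 (ENSMUSG00000020137.5, GRCm38 chromosome 10, 115368404 to 115384443, minus strand) measured 7.45, 6.75, 6.22 and 6.33 CPM in Tg trained and 6.22, 6.39, 5.21 and 6.68 in Tg untrained libraries. It measured 5.21, 6.25, 6.57 and 6.91 CPM in WT trained and 13.9, 10.9, 10.8 and 11.2 in WT untrained libraries. All 4 WT untrained libraries lay above the other 12, which overlapped each other; for the whole genome 0.898% of tested genes had a WT untrained group clear of the other libraries on either side. The Thap2 response was 0.13 in Tg and -0.91 in WT on the log2 scale, and their difference was 1.04 (SE 0.151, adjusted p = 0.0104, edgeR).

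Zfc3h1, which starts 516 bases from the start of Thap2 on the opposite strand, showed the same order. It averaged 16.4 ± 1.02 CPM in Tg trained, 16 ± 1.04 in Tg untrained, 16.3 ± 1.09 in WT trained and 28.6 ± 4.67 in WT untrained libraries (mean ± SD, n = 4), with a difference of 0.85 (SE 0.135, adjusted p = 0.0265, edgeR). Tmem19, the next gene on chromosome 10 and a transmembrane protein, measured 6.14 to 8.17 CPM in Tg trained, 6.97 to 7.35 in Tg untrained and 5.95 to 7.25 in WT trained, against 9.75 to 13.1 in WT untrained libraries, and lay just outside the threshold (difference 0.78, adjusted p = 0.06, edgeR). Zfc3h1 and Thap2 were no longer called without the Myh7-rich libraries (adjusted p of 0.148 and 0.083), with differences of 0.90 and 1.03. The Zfc3h1 call was also lost in 7 of 16 fits that left out a library and with the replicate number as a block (adjusted p = 0.0608, edgeR).

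Hist1h4m and a block of unnamed models on chromosome 4 were low or missing in WT untrained. Hist1h4m, a replication-dependent histone H4 gene (ENSMUSG00000069306.5, chromosome 13, 21811746 to 21812147), had 28, 89, 72 and 74 counts in Tg trained, 92, 49, 67 and 43 in Tg untrained and 63, 60, 55 and 122 in WT trained libraries. It had 0 counts in all 4 WT untrained libraries, where 3 counts over the group would correspond to 0.0151 CPM. Against that floor the level was at least 82.9-fold higher in Tg trained, at least 80.2-fold higher in Tg untrained and at least 108-fold higher in WT trained (adjusted p of the response difference 0.00171, edgeR). Its fitted difference of -9.29 depends on the prior count and is no bound. Without the Myh7-rich libraries its adjusted p was 0.0515.

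Gm17167 (ENSMUSG00000091542.1, chromosome 4, 42206998 to 42235313), a processed transcript, had the smallest p of all. It measured 6.48, 6.35, 3.52 and 5.26 CPM in Tg trained, 4.90, 4.77, 6.48 and 6.0 in Tg untrained, 5.21, 7.48, 8.09 and 6.78 in WT trained and 0.28, 0.302, 0.212 and 0.262 in WT untrained libraries. The highest WT untrained library lay 11.7-fold below the lowest of the other 12. Its response was -0.04 in Tg and 4.68 in WT, and the difference was -4.71 (SE 0.299, adjusted p = 5.87e-07, edgeR). Gm17081 and both identifiers named Gm13301 had the same pattern at lower levels: the WT untrained libraries held 0 to 4 counts each, against 23 to 105 counts in the other 12. Their fitted differences, -5.45, -6.40 and -4.62, rest on these few counts, and the -6.40 became -9.57 without WT untrained replicate 4. Gm17167 and the positioned Gm13301 overlap on the same strand, and reads matching both are split by RSEM, so these models are not 4 separate observations. Gm15737, the remaining called model, is on chromosome 6 and had no single group apart: it measured 0.512 to 1.20 CPM in Tg trained, 1.95 to 2.83 in Tg untrained, 1.27 to 2.47 in WT trained and 0.533 to 1.05 in WT untrained libraries (difference -2.35, SE 0.383, adjusted p = 0.0273, edgeR), and the call was lost in 9 of 16 fits that left out a library. It was also lost with the replicate number as a block (adjusted p = 0.0828), without the Alb-rich libraries (0.0629) and without the Myh7-rich ones, where the Gm15737 difference was -1.96 (0.279; edgeR for each).

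Part of the WT untrained pattern lay in neighbouring genes. Of the 64 positioned genes at p under 0.01 for which WT untrained stood apart, 19 lay in 5 groups of genes whose starts were within 500 kb of the next, 15 of them in 3 groups of 3 or more. For Tg untrained 4 of 43 such genes did, for Tg trained 2 of 23 and for WT trained 0 of 9. How often gene sets of these sizes form such groups was not tested. The largest group was on chromosome 14 between 69277601 and 69683286, where 8 of the 9 tested genes, all with negative differences, met the rule. Reads that match several models are divided by RSEM, so these 8 are not shown to be separate observations. The region on chromosome 4 held 4 of 4 tested genes and that on chromosome 10 held 3 of 4. Each region was drawn from the first to the last gene of its own group, which raises these shares in advance. They are a description only. Entpd4, a Golgi nucleotide hydrolase in the chromosome 14 region, measured 45.7 to 76.6 CPM in Tg trained, 45.4 to 66.3 in Tg untrained and 56.0 to 80.4 in WT trained libraries, against 33.1 to 38.4 in WT untrained. Its response difference was -0.99 (SE 0.218, adjusted p = 0.22, edgeR), and its response in WT passed on its own (1.02, adjusted p = 0.007).

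Several of the genes in which WT untrained stood apart are known to differ in sequence or copy number between laboratory lines of C57BL/6 mice, and the strain is not given in the labels. Of 11 tested genes of that kind, WT untrained stood apart for 6, against 18.7% of all tested genes. This list was written with earlier results of these data known, so the share is a description only. Nnt, the mitochondrial transhydrogenase, of which some lines carry a deletion, measured 6.25, 9.35, 36.9 and 8.49 CPM in Tg trained and 9.57, 25.2, 17.0 and 8.83 in Tg untrained libraries. It measured 8.96, 21.2, 10.8 and 26.8 CPM in WT trained and 44.4, 36.5, 29.3 and 43.1 in WT untrained libraries. High and low libraries thus stood side by side in the first 3 groups, and the WT untrained libraries were all high; a second identifier named Nnt took 0 to 13.5 CPM, so the reads were divided. Wdfy1, an endosomal adaptor, fell into levels near 6 and near 11 CPM, with 6.01, 11.6, 6.16 and 11.6 in Tg trained, 11.8, 6.27, 6.43 and 12 in Tg untrained and 10.6, 5.58, 9.90 and 6.03 in WT trained libraries, while WT untrained libraries held 17.7, 14.3, 17.2 and 15.9. The difference of responses was 1.19 (SE 0.701, adjusted p = 0.86) for Nnt and 0.97 (SE 0.386, adjusted p = 0.774) for Wdfy1 (edgeR). Dynlt1b, a dynein light chain of this kind, had a difference of 0.83 (SE 0.161, adjusted p = 0.0994, edgeR), with 11.9 to 12.9 CPM in WT untrained libraries and 5.83 to 9.80 in the other 12. The part of genetic background in the response differences was not tested.

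Other named genes in which WT untrained stood apart had modest differences. Rell1, a member of the RELT receptor family, measured 5.93 to 6.74 CPM in Tg trained, 6.17 to 6.66 in Tg untrained and 5.87 to 6.28 in WT trained libraries, against 4.27 to 5.12 in WT untrained (difference -0.40, SE 0.096, adjusted p = 0.30, edgeR). Rell1 was lower in WT untrained than in the other 3 groups together (log2 difference -0.45, adjusted p = 0.000714, edgeR). The zinc-finger gene Zc3h6 was likewise lower there (-0.62, adjusted p = 0.00754), and Cd59a, which protects cells from complement, was higher (0.80, adjusted p = 0.00529). Lpl, the lipase that takes fatty acids from blood lipoproteins, measured 161 to 204 CPM in Tg trained, 155 to 188 in Tg untrained and 142 to 207 in WT trained libraries, all above the 104 to 138 CPM of WT untrained, with a difference of -0.49 (SE 0.167, adjusted p = 0.646, edgeR).

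Tg untrained stood apart with high levels of Apold1 and some other genes of the endothelial response to flow and stress. Apold1, an apolipoprotein L domain protein of endothelial cells (ENSMUSG00000090698.2, chromosome 6, 134981718 to 134986836), measured 5.37, 4.63, 3.48 and 5.57 CPM in Tg trained and 11.9, 13.2, 14.9 and 17.0 in Tg untrained libraries. It measured 11.2, 6.44, 5.40 and 5.26 CPM in WT trained and 5.79, 2.06, 4.27 and 4.27 in WT untrained libraries. The 4 Tg untrained libraries lay above all others; 0.709% of tested genes had a Tg untrained group clear of the other 12 libraries. The response was -1.58 in Tg and 0.80 in WT, and the difference was -2.38 (SE 0.384, adjusted p = 0.0268, edgeR). The call was lost in 8 of 16 fits that left out a library, with robust dispersion and without the Myh7-rich libraries, where the difference was -2.28 (adjusted p = 0.0677). Tg untrained was higher than the other 3 groups together by 1.46 on the log2 scale (adjusted p = 0.0105, edgeR).

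Klf2, a Krüppel-like factor induced by blood flow, measured 5.25 to 8.0 CPM in Tg trained, 9.89 to 16.4 in Tg untrained, 5.24 to 11 in WT trained and 4.46 to 5.97 in WT untrained libraries, so that 1 WT trained library overlapped Tg untrained. Its response difference was -1.47 (SE 0.305, adjusted p = 0.159, edgeR). Bcl6b, an endothelial transcriptional repressor, measured 4.82 to 6.04 CPM in Tg trained, 9.03 to 10.5 in Tg untrained, 2.48 to 7.42 in WT trained and 2.36 to 4.81 in WT untrained libraries, with no overlap between Tg untrained and the rest (difference -1.12, SE 0.363, adjusted p = 0.622, edgeR). Against the other 3 groups together, Tg untrained was higher in Klf2 (1.02, adjusted p = 0.0235), Bcl6b (1.06, adjusted p = 0.0393), the adhesion scaffold Nedd9 (0.84, adjusted p = 0.0204), the immediate early gene Ier2 (0.90, adjusted p = 0.0271), the RNA-stabilising factor Arid5a (0.58, adjusted p = 0.0438) and the potassium channel subunit Kcne4 (0.79, adjusted p = 0.0393; edgeR for each). It was lower in the amino acid transporter Slc38a4 (-0.70, adjusted p = 0.027) and in Slc15a5, a member of the peptide transporter family (-1.06, adjusted p = 0.0438). Without Tg untrained replicate 3 this contrast called 3 genes in place of 37, so most of the calls named here were lost. Without WT untrained replicate 2 it called 326. Slc15a5 measured 4.27 to 6.12 CPM in Tg trained, 1.33 to 4.03 in Tg untrained, 4.68 to 6.41 in WT trained and 4.75 to 7.69 in WT untrained libraries.

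Of 23 tested genes of the endothelial response to flow and stress, 22 had a negative response difference and 1 a positive one, with a median of -0.30; 6 stood at p under 0.05, all lower (3.59% of all tested genes did), and Apold1 was called. The median was -0.19 without WT untrained replicate 2 and -0.18 without the Alb-rich libraries. Of the general endothelial markers, 11 of 14 had a negative difference, with a median of -0.11 (-0.01 without WT untrained replicate 2) and 1 at p under 0.05. In untrained muscle, Apold1, Klf2, Bcl6b, Hey1 and Notch3 of the 23 were higher in Tg than in WT at adjusted p of 0.0063, 0.0138, 0.0298, 0.0185 and 0.0407, where 0.497% of all tested genes were called higher (0.743% in either direction); in trained muscle none of the 23 was called, against 0.0114% of all. Without Tg untrained replicate 3, 3 of these 5 untrained calls remained, those of Apold1, Klf2 and Hey1. General endothelial markers were also higher in Tg untrained than in WT untrained by sign, 14 of 14, with a median of 0.25 and 0 called. Of them 7 stood at p under 0.05, where 1429 of 17490 tested genes were higher. Smooth muscle and pericyte markers were higher in 11 of 14, with a median of 0.29 (log2) and 2 called. Both gaps were widest against WT untrained replicate 2. Relative to the mean of all libraries, its median log2 level was -0.549 for endothelial and -0.554 for smooth muscle and pericyte markers. The other WT untrained libraries lay at -0.105 to -0.026 and -0.066 to -0.018. Tg untrained libraries lay at -0.082 to 0.249 and 0.069 to 0.226, in the same order. The part of these cells in the flow and stress genes was not tested. In Hey1, a Notch target, it was WT untrained that stood apart, with 0.889 to 1.80 CPM against 2.04 to 3.30 in the other 12 libraries. The list mixes both untrained groups in this way: Tg untrained stood apart for 5 of its genes, WT untrained for 5, Tg trained for 1, WT trained for 1 and none for 11. In bulk muscle, more cells of a type and more RNA per cell cannot be told apart.

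The immediate early genes had the lowest median response difference of the lists with 5 or more tested members. These are transcription factors and regulators induced within minutes of a stimulus, without new protein synthesis. Of 28 tested members, 25 had a negative and 3 a positive difference, with a median of -1.07, and 17 stood at p under 0.05, all lower in Tg, against 3.59% of all tested genes. None passed the adjusted threshold, with a lowest adjusted p of 0.129 (edgeR), so no member is said to have changed; DESeq2 called 5 and limma-voom 0.

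Fos, the AP-1 subunit (ENSMUSG00000021250.13, chromosome 12, 85473890 to 85477273), measured 2.23, 3.33, 4.45 and 3.09 CPM in Tg trained and 7.72, 9.09, 39.0 and 16.1 in Tg untrained libraries. It measured 5.88, 2.48, 11.2 and 13.4 CPM in WT trained and 5.53, 2.13, 3.18 and 3.16 in WT untrained libraries. All Tg untrained libraries lay above all Tg trained ones, while WT trained and WT untrained overlapped; no single group stood apart, since WT trained lay between. The response difference was -3.69 (SE 0.746, adjusted p = 0.129 by edgeR and 0.00397 by DESeq2). Without the Myh7-rich libraries, among them the Tg untrained library with 39.0 CPM, it was -2.73 (adjusted p = 0.375, edgeR).

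Egr1 (difference -2.62, adjusted p = 0.22), Fosb (-4.24, adjusted p = 0.22), Klf4 (-1.62, adjusted p = 0.202), Nr4a2 (-2.61, adjusted p = 0.30) and Atf3 (-2.56, adjusted p = 0.623) followed the order of Fos, with the lowest mean in Tg trained or WT untrained and the highest in Tg untrained or WT trained (edgeR). A large negative difference by itself favours such an order, so it is a description only. Btg2, an antiproliferative gene, was set apart by Tg trained instead: it measured 9.60, 8.96, 9.74 and 9.57 CPM there, below all of the 18.1 to 42.7 in Tg untrained, 12.2 to 38.3 in WT trained and 14 to 22.9 in WT untrained libraries. Its difference was -2.01 (SE 0.474, adjusted p = 0.282, edgeR). Across the 28 genes, Tg trained stood apart for 8, Tg untrained for 8, WT untrained for 2, WT trained for 0 and no group for 10.

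The response in Tg carried most of the difference in this list. All 28 members were lower in Tg trained than in Tg untrained, with a median of -0.89, and 22 stood at p under 0.05 (6.81% of all tested genes were lower at that level); none passed the adjusted threshold. In 19 of 28 every Tg trained library lay below every Tg untrained library, against 4.52% of all tested genes. The members were measured in the same libraries, so these are not counts of independent observations. Relative to the mean of all libraries, the list's median log2 level was 0.116, 0.16, 0.88 and 0.564 in Tg untrained replicates 1 to 4. In Tg trained it was -0.35, -0.506, -0.426 and -0.469. In WT the median response was 0.06, with 17 members up and 11 down and 5 at p under 0.05, all higher (4.76% of all tested genes). In untrained muscle Fos, Egr1, Ier2, Klf2 and Arc were higher in Tg than in WT at adjusted p of 0.0498, 0.0389, 0.0471, 0.0138 and 0.0375 (edgeR), where 0.497% of all tested genes were called higher. Klf2 is also among the flow and stress genes above, so both lists count the same call. Without Tg untrained replicate 3, the library highest in Fos, only Klf2 of these 5 stayed under 0.05 (adjusted p = 0.0412, against 0.0721 to 0.138 for the other 4), and the contrast called 43 genes in place of 130. In trained muscle none of the 28 was called. The list median was -0.87 without the Myh7-rich libraries and -1.14 without the Alb-rich ones.

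**Figure D3:**
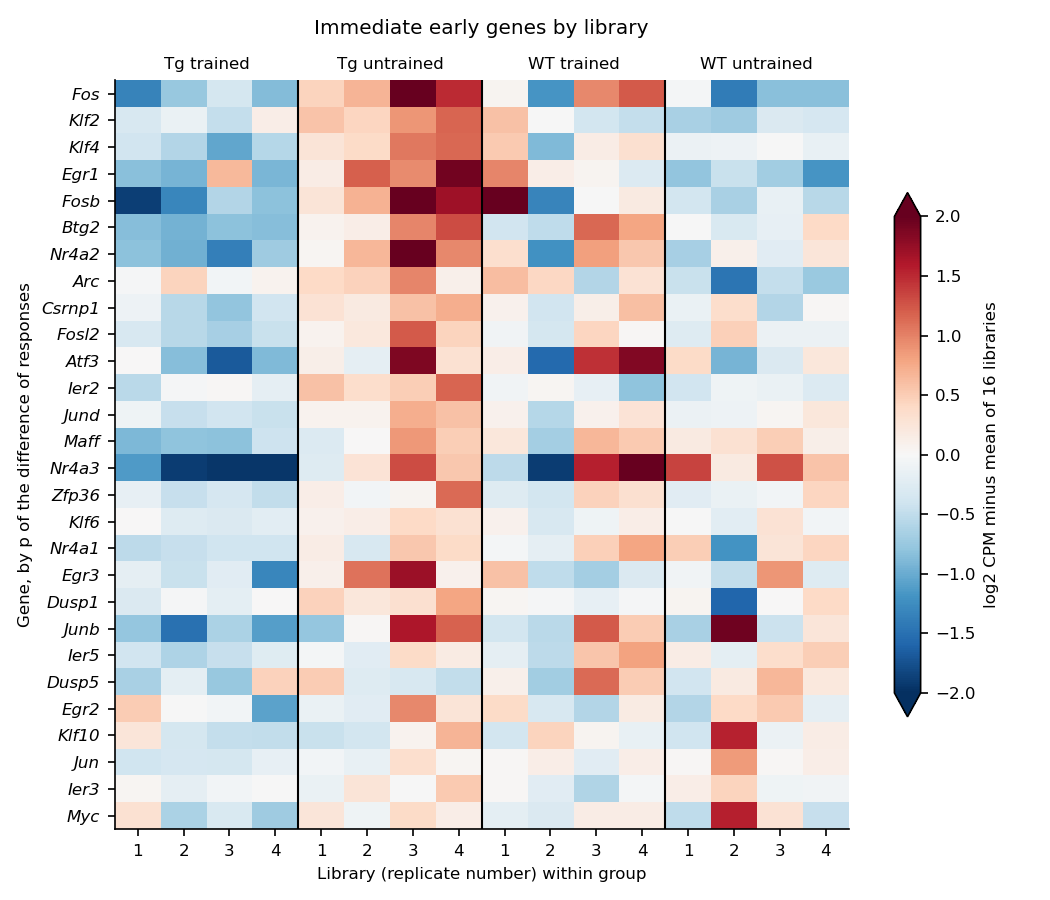
Colours give log2 CPM of the 28 tested immediate early genes (y axis, ordered by p of the response difference) in each library (x axis, by group), minus the gene's mean over the 16 libraries and cut off at 2 in the colour scale. The 4 Tg trained columns are blue for nearly all of the upper rows, Tg untrained replicates 3 and 4 are the reddest, and WT trained replicates 3 and 4 are redder than WT trained replicate 2.

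The DNA upstream of these genes is shown for Apold1 and for 4 immediate early genes described above, as the 250 bases before the annotated start (RefSeq, GRCm38.p6). Capitals mark the cAMP response element TGACGTCA, or its shorter form TGACG, on either strand; each TGACGTCA also contains the shorter form. Btg2 lies at chr1:134079156-134079405 on the minus strand, Apold1 at chr6:134981751-134982000 on the plus strand, Fos at chr12:85473640-85473889 on the plus strand, Klf2 at chr8:72318812-72319061 on the plus strand and Klf4 at chr4:55532476-55532725 on the minus strand. RefSeq and GENCODE place some starts differently: the Apold1 window lies inside the gene as GENCODE places it, and the Klf2 window runs past the GENCODE start.
Btg2: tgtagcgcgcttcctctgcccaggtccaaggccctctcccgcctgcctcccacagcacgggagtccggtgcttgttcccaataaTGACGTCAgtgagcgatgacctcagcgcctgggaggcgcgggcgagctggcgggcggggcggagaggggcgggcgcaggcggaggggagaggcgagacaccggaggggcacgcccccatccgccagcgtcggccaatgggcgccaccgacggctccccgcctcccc
Apold1: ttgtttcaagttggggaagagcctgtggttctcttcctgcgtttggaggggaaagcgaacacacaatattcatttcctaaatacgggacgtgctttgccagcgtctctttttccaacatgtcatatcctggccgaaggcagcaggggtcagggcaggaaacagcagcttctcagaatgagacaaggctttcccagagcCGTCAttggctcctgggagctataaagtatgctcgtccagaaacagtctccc
Fos: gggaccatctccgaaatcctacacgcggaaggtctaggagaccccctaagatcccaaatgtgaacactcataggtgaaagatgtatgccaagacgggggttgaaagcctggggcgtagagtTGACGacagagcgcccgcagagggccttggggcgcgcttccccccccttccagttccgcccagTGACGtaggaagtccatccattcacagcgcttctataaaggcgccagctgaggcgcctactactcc
Klf2: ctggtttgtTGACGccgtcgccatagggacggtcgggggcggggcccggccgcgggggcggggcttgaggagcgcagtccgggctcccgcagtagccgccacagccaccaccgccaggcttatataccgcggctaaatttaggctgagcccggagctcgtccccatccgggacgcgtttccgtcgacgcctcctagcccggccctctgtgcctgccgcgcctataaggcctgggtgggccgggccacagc
Klf4: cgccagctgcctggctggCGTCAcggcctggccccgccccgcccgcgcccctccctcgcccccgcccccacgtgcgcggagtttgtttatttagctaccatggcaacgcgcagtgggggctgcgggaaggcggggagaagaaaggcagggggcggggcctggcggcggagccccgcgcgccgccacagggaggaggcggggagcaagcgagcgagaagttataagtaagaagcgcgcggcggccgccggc

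Of the 28 immediate early genes, 22 had such a window. The full element TGACGTCA was found in 3 of the 22 genes (1.55% of 32851 windows of all genes), the AP-1 motif TGANTCA in 1 (6.75% of windows), the serum-response CArG box in 3 (1.47%) and the shorter TGACG in 15 (17.8%); a gene with several windows was counted once if any held a match. TGACG was added to the search after the windows had been read. A match describes letters in these windows and not binding.

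Tg trained stood apart in fewer genes. Cryab, the small heat shock protein that protects desmin and titin in working muscle, measured 363, 284, 198 and 287 CPM in Tg trained, 163, 184, 169 and 169 in Tg untrained, 187, 140, 170 and 193 in WT trained and 160, 192, 145 and 194 in WT untrained libraries. Every Tg trained library lay above the other 12, which overlapped; 0.543% of tested genes had a Tg trained group clear of the rest. Its response was 0.72 in Tg and 0.00 in WT, the difference was 0.73 (SE 0.212, adjusted p = 0.592), and Tg trained was higher than the other 3 groups together by 0.72 (adjusted p = 0.0376, edgeR). Masp1, a protease of the lectin complement pathway, measured 2.51 to 3.19 CPM in Tg trained against 1.56 to 2.31 in the other 12 libraries and was likewise higher (0.63, adjusted p = 0.0154). Csf2ra, the GM-CSF receptor chain of myeloid cells, was lower (-0.90, adjusted p = 0.0154), with 0.351 to 0.472 CPM in Tg trained, 0.676 to 0.745 in Tg untrained, 0.781 to 1.14 in WT trained and 0.731 to 0.871 in WT untrained libraries.

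Macrophage markers had the next lowest median of the lists with 5 or more tested members. All 19 tested members had a negative difference, with a median of -0.68. At p under 0.05 stood 5 of them (3.59% of all tested genes were lower at that level), and none was called. Tg trained stood apart for 13 of the 19, against 13.0% of all tested genes. The median response was -0.68 in Tg and -0.02 in WT. All 19 were also lower in Tg than in WT within each training state. In trained muscle the median was -0.996, with 17 at p under 0.05 (826 of 17490 tested genes were lower at that level). In untrained muscle it was -0.348, with 1 at p under 0.05 (1396 of 17490). Summed marker levels ranged from 45.1 to 61.1 CPM in Tg trained, 52.7 to 95.8 in Tg untrained, 51.9 to 148 in WT trained and 77.8 to 124 in WT untrained libraries. Laptm5, a lysosomal protein of blood cells, measured 1.42 to 1.89 CPM in Tg trained, 1.66 to 3.15 in Tg untrained, 1.92 to 4.93 in WT trained and 2.36 to 3.34 in WT untrained libraries (difference -0.84, SE 0.348, adjusted p = 0.783, edgeR). The median response difference of the list was -0.37 without WT trained replicate 4 and -0.35 without the Alb-rich libraries. WT trained replicate 4 held 8.09 CPM of the macrophage protease gene Ctss against 1.06 to 3.32 in the other libraries.

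WT trained set few genes apart. Myh8, the perinatal myosin heavy chain, measured 3.91 to 8.04 CPM in WT trained, against 3.05 to 3.97 in Tg trained, 2.58 to 3.37 in Tg untrained and 2.76 to 3.49 in WT untrained libraries, so that 1 WT trained library overlapped Tg trained. It was higher in WT trained than in the other 3 groups together (0.86, adjusted p = 0.0329) and had a response difference of -0.72 (SE 0.256, adjusted p = 0.673, edgeR). Rcan1, a calcineurin inhibitor that calcineurin itself induces, measured 20.1 to 25.3 CPM in Tg trained, 20.2 to 24.3 in Tg untrained, 25.9 to 35.2 in WT trained and 19.0 to 22.8 in WT untrained libraries, with no overlap between WT trained and the rest (0.206% of tested genes) and a difference of -0.46 (SE 0.144, adjusted p = 0.611, edgeR). Mmp9, a gelatinase of neutrophils and other cells, was lowest there, with 0.131 to 0.632 CPM in WT trained against 0.64 to 2.58 in the other 12 (difference 1.52, SE 0.535, adjusted p = 0.655, edgeR).

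**Figure D4:**
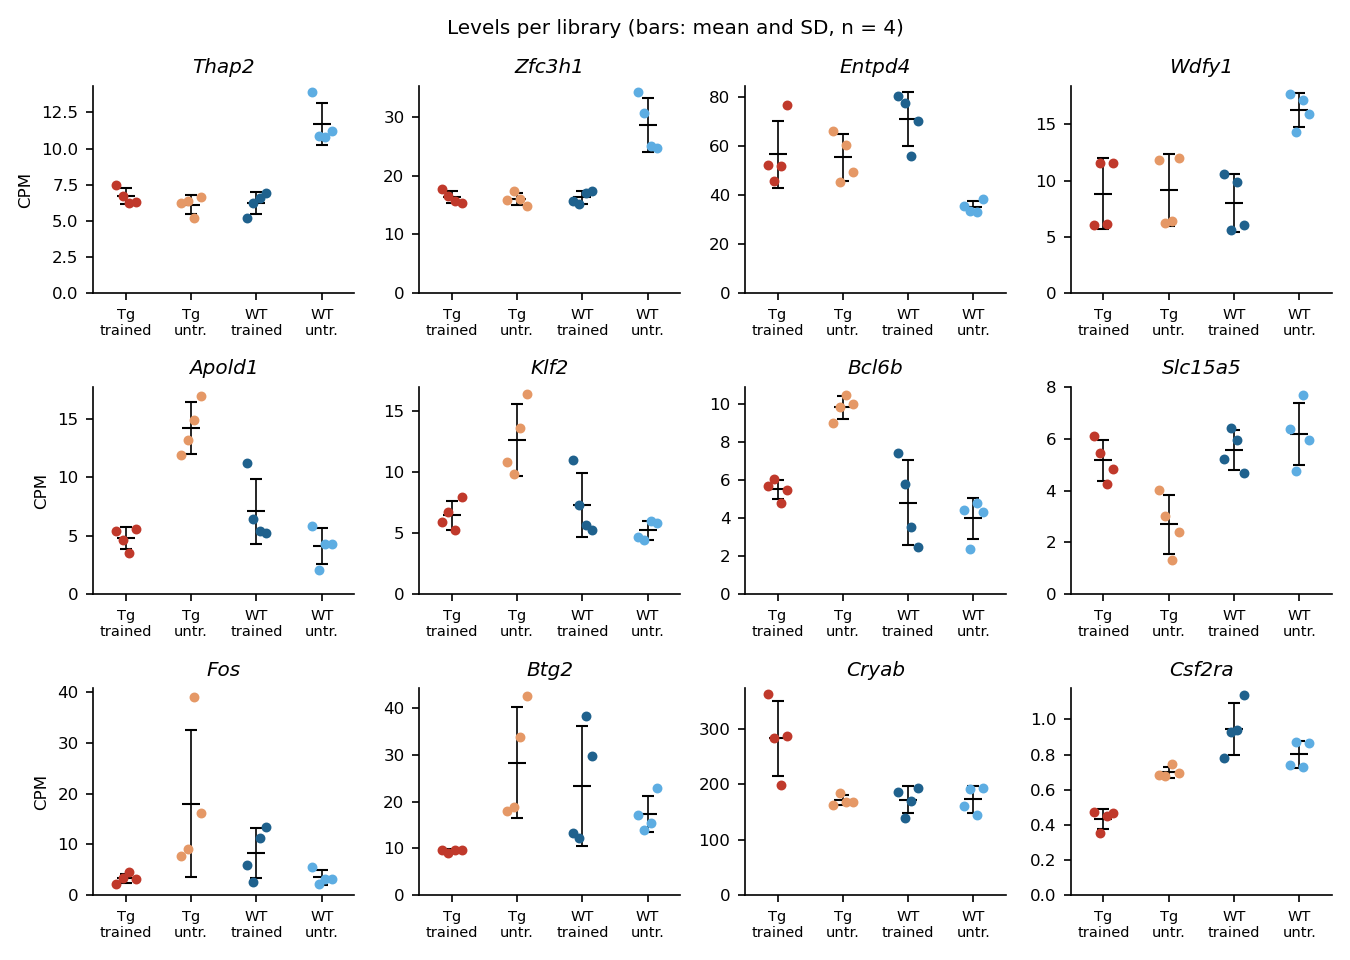
Points give CPM (y axis, from 0) of 12 genes in each library, by group (x axis); bars give the mean and SD of 4 libraries. The top row shows genes in which WT untrained stood apart, the middle row genes in which Tg untrained did, and the bottom row Fos, with no single group apart, and Btg2, Cryab and Csf2ra, in which Tg trained did.

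Interferon-stimulated genes, part of the innate immune signalling that the study's title names, had a small negative median. Of 44 tested members 30 were negative and 14 positive, with a median of -0.13 and 5 at p under 0.05, all lower; none was called. The median was -0.06 without Tg trained replicate 4 and -0.23 without Tg trained replicate 1. WT trained stood apart for 11 of the 44 (7.80% of all tested genes). Irf7, the master regulator of the type I response, measured 1.36 to 1.70 CPM in Tg trained, 1.58 to 2.17 in Tg untrained, 1.37 to 3.95 in WT trained and 1.25 to 2.05 in WT untrained libraries, so the groups overlapped (difference -0.89, SE 0.332, adjusted p = 0.73, edgeR). Oas2, an antiviral enzyme, had a difference of -0.86 (SE 0.287, adjusted p = 0.636, edgeR). The genes of cGAS, STING and NF-kappaB signalling split evenly, 11 up and 11 down of 22, with a median of 0.01 (-0.16 without the Myh7-rich libraries, -0.10 without WT untrained replicate 2) and 0 at p under 0.05. Sting1 had a difference of -0.02 (SE 0.283) and Cgas, at 0.216 to 0.512 CPM in all libraries, one of -0.58 (SE 0.394), with adjusted p of 0.993 and 0.885 (edgeR).

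Slow-fibre genes differed in the same direction as the immediate early genes, with 14 of 18 negative, a median of -0.41 and 7 at p under 0.05. Myh7 measured 1.16 to 2.50 CPM in Tg trained, 1.91, 64.3, 42.1 and 3.13 in Tg untrained, 2.22 to 29.7 in WT trained and 2.12 to 11.2 in WT untrained libraries, a difference of -5.00 (SE 1.476, adjusted p = 0.592, edgeR). The troponin genes Tnni1, Tnnc1 and the light chain Myl2 were high in the same libraries. Without the 4 Myh7-rich libraries the list median was -0.10. The share of slow fibres in each sample is not given in the labels, and its part in the result was not tested.

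Genes of the respiratory chain had close median responses in both genotypes over all 16 libraries, but not without WT untrained replicate 2. The 36 complex I genes had a median response of 0.14 in Tg and 0.13 in WT, a median difference of 0.02 and 0 members at p under 0.05. The 38 nuclear genes of complexes II to V had medians of 0.17 and 0.13, and the 37 genes of the disulfide relay and its substrates 0.14 and 0.10. Relative to the mean of all libraries, WT untrained replicate 2 had a median log2 level of -0.68 for complex I and -0.79 for complexes II to V. Without it the median differences were 0.18 for complex I, 0.21 for complexes II to V and 0.11 for the relay; without the Alb-rich libraries, which include it, those of complex I and complexes II to V were 0.15 and 0.18. In the relay list, the copper chaperone Cox17 measured 19.2 to 20.6 CPM in Tg trained, 17.0 to 18.7 in Tg untrained, 17.9 to 20.9 in WT trained and 18.7 to 21.3 in WT untrained libraries (difference 0.28, SE 0.085, adjusted p = 0.602, edgeR). The 28 genes of fatty acid oxidation had 24 negative differences and a median of -0.11, and WT untrained stood apart for 20 of them; relative to the mean of all libraries, their median log2 level was -0.50 in WT untrained replicate 2, against -0.16 to 0.31 in the other 15, and without it the list's median difference was 0.02. Chchd4 itself had a difference of 0.06 (SE 0.116, adjusted p = 0.959), Triap1, its partner in the title, one of 0.07 (SE 0.119, adjusted p = 0.958) and Myod1, the myogenic factor, one of -0.42 (SE 0.259, adjusted p = 0.874; edgeR for each).

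**Figure D5:**
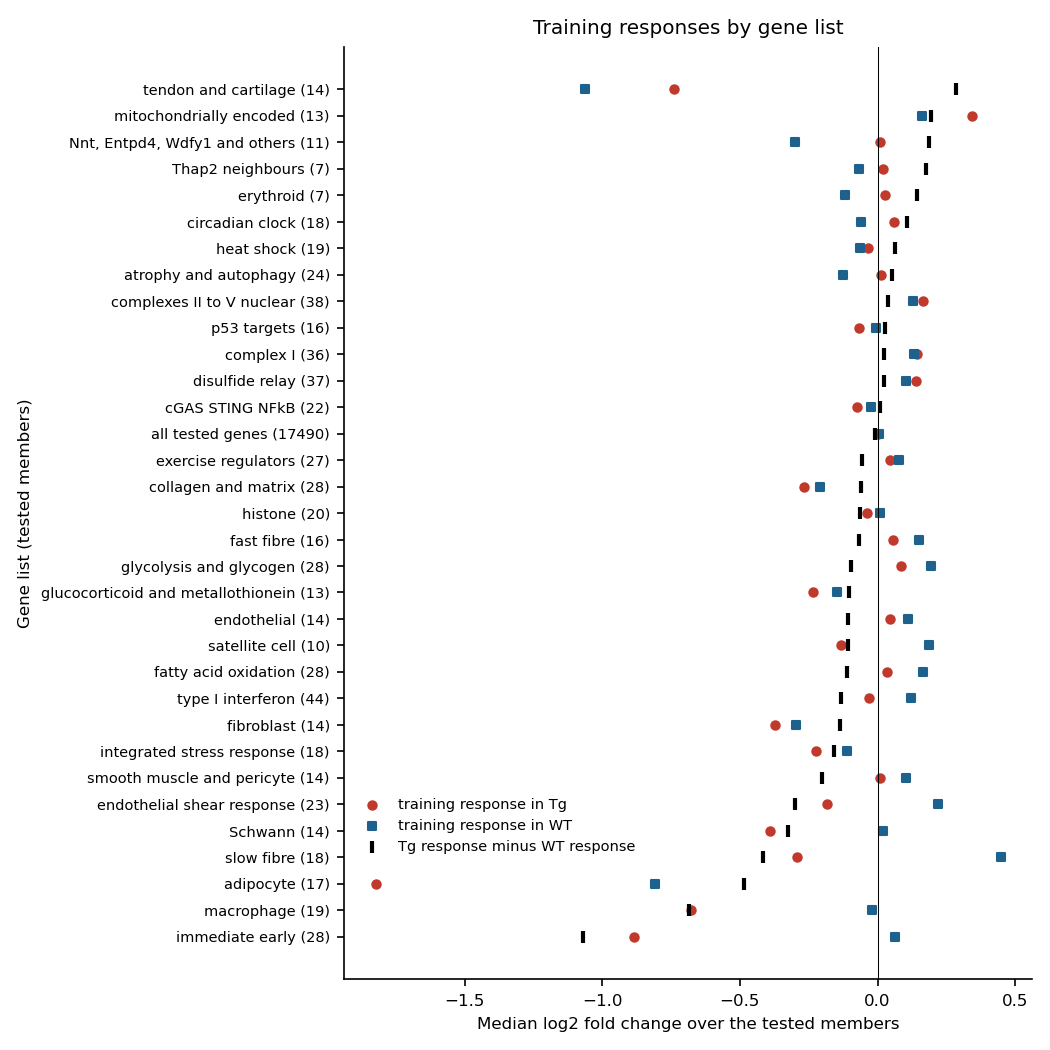
For each list with 5 or more tested members (y axis), symbols give the median log2 fold change (x axis) of the training response in Tg (red circles), in WT (blue squares) and their median difference per gene (black bars). The immediate early genes (-1.07) and macrophage markers (-0.68) lie lowest; adipocyte markers have negative responses in both genotypes and a difference of -0.49.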

How the data were processed

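RNA-seq of skeletal muscle was deposited as 1 table of RSEM expected counts, not normalized; 12.48% of its values were not whole. Per the submitters' processing notes, the authors used STAR 2.7.8a, RSEM 1.3.2 and the mm10 build; no annotation release is named in the sources used here, and gene positions came from GENCODE M21 (GRCm38) by gene identifier. Expected counts were rounded, filtered by group with filterByExpr, scaled by TMM and fitted with edgeR 4.0.16 (R 4.3.3) as 1 quasi-likelihood model of 4 group means over 16 libraries. The biological coefficient of variation was 14.14%. SE is the log2 fold change over the square root of F; CPM intervals are the spread between libraries. Calls were made at a Benjamini-Hochberg adjusted p of 0.05 over all 17490 genes. In a simulation of the response difference (17305 genes tested), the fit called, with the right sign, 76 of 100 genes changed 2-fold and 100 of 100 changed 4-fold, with 3 unchanged genes called. The simulated counts followed the fitted trend of spread with level, without spread particular to a gene and without outlying libraries. Recovery in the real libraries can therefore be lower. No replicate pair agreed within sampling noise (lowest chi-square per degree of freedom 7.31). Reads that match several genes are divided by RSEM, and strand was not stated, so near-identical and overlapping genes are uncertain.

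The comparison, the 35 gene lists and the naming rule were chosen with earlier results of these data known. Members of a list were measured in the same libraries, so counts over a list are a description and not independent observations. Lists can share members, as with Klf2. The rule named the called genes, the 15 smallest p of the response difference in each direction among named genes of at least 5 CPM, up to 4 members of each list described, and Chchd4, Triap1, Myod1, Cgas, Sting1 and Nnt. Masp1, Csf2ra, Slc38a4, Slc15a5, Arid5a, Myh8, Kcne4, Cd59a, Zc3h6, Ier2, Bcl6b, Arc, Wdfy1, Fosb, Nr4a2 and Atf3 were chosen after their values were seen. Alternatives were RLE size factors, no filter, at least 1 CPM in 4 libraries, DESeq2 1.42.0, limma-voom (limma 3.58.1), the replicate number as a block, robust dispersion, each library left out, and the Alb-rich or Myh7-rich libraries left out.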

Additional observations from a re-analysis of the deposited data

Results flagged for a closer look

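The training response itself was tested between the genotypes, and it differed at adjusted p under 0.05 (edgeR) for 9 genes. The difference, Tg response minus WT response on the log2 scale, was 1.04 for Thap2, 0.85 for Zfc3h1, -2.38 for Apold1, -9.29 for Hist1h4m, -2.35 for Gm15737, -5.45 for Gm17081, -4.71 for Gm17167 and -4.62 and -6.40 for the identifiers named Gm13301. The fitted values for Hist1h4m, Gm17081 and the Gm13301 identifiers rest on few or no counts in WT untrained, so their size is uncertain.

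Within groups of 4 libraries, 22 of 244 gene and group pairs described above held a library far from its group, by a test that chance meets in about 1 of 20 groups. In Tg trained libraries these were Nnt at 36.9 CPM, Egr1 at 4.25, Hist1h4m at 0.601, Gm15737 at 0.512, Csf2ra at 0.351 and Nedd9 at 6.08. In Tg untrained libraries they were Alb at 15 CPM, Atf3 at 13.2 and Rcan1 at 24.3. In WT trained libraries they were mt-Co3 at 5790 CPM, Alb at 35.6, Myh7 at 29.7, Myl2 at 6.73, Ctss at 8.09 and Fosb at 2.90. In WT untrained libraries they were Thap2 at 13.9 CPM, Lpl at 104, Alb at 14.9, Myh7 at 11.2, Myod1 at 11.9, Hey1 at 0.889 and 1 Gm13301 identifier at 0.0806.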

How the results depend on the processing

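No called response difference changed sign under any alternative. Signs turned for 16 of 180 single genes (40 of 4483 values, lowest adjusted p 0.879) and for 18 of 33 list medians (50 of 660 values). Of 958 summary values compared, 867 stayed the same and 91 moved; of 4483 single-gene values, 4420 kept their side of the threshold, 33 lost the call and 30 gained it. The 9 calls became 37 with DESeq2, 15 without a filter and 4 without the Myh7-rich libraries. DESeq2 called 132 genes for training in Tg, 68 for training in WT, 55 for Tg against WT in trained and 442 in untrained muscle. Without a filter, 5 were called for training in Tg, 1 for Tg against WT trained (also 1 with at least 1 CPM in 4 libraries), 24 for Tg trained and 16 for WT trained against the other groups. Among genes at p under 0.05, Tg trained stood apart for 214 without a filter and 78 at a distance of 1.5 times the range, Tg untrained for 124 at that distance, WT trained for 42 with the CPM filter, 117 without a filter and 45 at that distance, and no group for 733 without a filter and 640 at that distance. Without the Myh7-rich libraries, list medians were 0.058 (Schwann), -0.007 (circadian clock) and -0.23 (histone); without the Alb-rich ones, -0.021 (circadian clock) and -0.058 (p53 targets). The causes were not tested.

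Leaving out 1 library gave 6 to 12 response differences, 0 to 93 calls for training in Tg, 16 (without WT untrained replicate 4) to 30 for training in WT, 1 to 16 (without WT trained replicate 2) for Tg against WT trained and 43 (without Tg untrained replicate 3) to 138 untrained. Against the other groups it gave 2 to 74 for Tg trained, 3 to 326 for Tg untrained, 6 to 43 for WT trained and 62 to 320 for WT untrained. The groups stood apart for 55 to 244, 136 to 347, 44 to 112 and 173 to 424 genes in that order, and none for 341 to 655. List medians ranged from -0.46 to 2.14 (neutrophil, 4 tested genes), -0.19 to 0.06 (glycolysis), 0.03 to 0.14 (circadian clock), -0.051 to 0.047 (p53 targets) and 0.10 to 0.51 (Thap2 neighbours).

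With the replicate number as a block, 7 response differences were called (Zfc3h1 and Gm15737 were not), and 1 gene for Tg against WT trained and 66 untrained. Samples of the same number correlated weakly: 6 of 24 same-number pairs correlated above 0.1 (range -0.15 to 0.18), and 9 of 24 matched their own number best. Whether equal numbers mark paired samples is not given in the labels, and correlations this small cannot settle it.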

Other observations

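Adipocyte markers had negative median responses in both genotypes: over 17 tested genes the median was -1.82 in Tg and -0.81 in WT, 16 of the 17 response differences were negative, and 2 stood at unadjusted p under 0.05. The median difference of -0.49 was -0.84 without Tg trained replicate 3. Summed levels ranged from 1060 to 1400 CPM in Tg trained, 1330 to 1560 in Tg untrained, 894 to 1540 in WT trained and 1230 to 1720 in WT untrained libraries, so the groups overlapped. Tendon and cartilage genes had responses of -0.74 in Tg and -1.06 in WT, with 10 of 14 differences positive and 0 at p under 0.05; leaving out WT trained replicate 2 gave a median difference of -0.04, and leaving out WT trained replicate 4 one of 0.87. None of these genes was called.

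Transcripts of the mitochondrial genome had a median response of 0.34 in Tg and 0.16 in WT, with 10 of 13 differences positive and a median difference of 0.20, which leaving out WT untrained replicate 3 put at 0.07 and leaving out WT untrained replicate 2 at 0.31. mt-Atp6, a subunit of ATP synthase, measured 937 to 1180 CPM in Tg trained, 435 to 813 in Tg untrained, 597 to 1080 in WT trained and 666 to 1040 in WT untrained libraries (difference 0.63, SE 0.276, adjusted p = 0.796, edgeR). mt-Co3, which adjoins it, reached 5790 CPM in 1 WT trained library, against 203 to 761 in the other 15. The long noncoding RNA Neat1 measured 1140 to 1170 CPM in Tg trained, above the 737 to 1030 of Tg untrained, 781 to 1070 of WT trained and 1010 to 1100 of WT untrained libraries (difference 0.55, SE 0.148, adjusted p = 0.496, edgeR).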
